A study of Mus musculus with 2 samples.

Results

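The cells described here are T cells that carried transcripts of Cx3cr1, S1pr5 and Klrg1, 3 genes of terminally differentiated effector lymphocytes. A cell was taken when the UMIs (unique molecular identifiers, each counting 1 captured RNA molecule) of the 3 genes summed to at least 2. It also had at least 1 UMI of Cd3d, Cd3e or Cd3g, 0 of Trdc (the constant part of the δ chain of the γδ T cell receptor) and at most 1 of Lyz2, a myeloid gene. The gate held 158 of 5600 T cells chosen in this way, out of 7396 deposited barcodes, of which 6859 passed a filter that asked for 200 genes or more and allowed mitochondrially encoded (mt-) genes up to 10% of UMIs. Of the 158 gated cells, 2 came from the Id2-deficient library and 156 from the control library. The gate was drawn with that difference known, so the difference is described and not tested.

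There were 2 single-cell 3′ RNA libraries, 1 per genotype. The Id2-deficient library came from Il17Cre/Id2f/f/R26YFP mice and the control library from Il17Cre/R26YFP mice. Both sets of mice had been given MOG in CFA, which induces experimental autoimmune encephalomyelitis (EAE, a mouse model of multiple sclerosis), and at peak disease CD4+ YFP+ cells were taken by flow sorting. The labels disagree on where the cells came from: the titles name the draining lymph node, the tissue field spleen and lymph node, and the protocol spleen alone. Mice of both genotypes carried Il17-driven Cre and a Rosa26 YFP allele, so YFP marks cells that have expressed Il17 at some time, and floxed Id2 is lost only in cells with that history. The Id2-deficient library held 2459 barcodes and 14668624 UMIs, the control library 4937 barcodes and 33646845 UMIs, and 3 barcodes occurred in both, none of them a gated control cell. How many mice were pooled per library the sources used here do not give.

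CX3CR1 is the receptor for fractalkine, a chemokine displayed on vessel walls. S1PR5 is a sphingosine 1-phosphate receptor that lets NK cells leave lymph nodes and bone marrow, and KLRG1 is an inhibitory lectin that binds cadherins. In CD8 T cells the 3 mark the short-lived, circulating end of effector differentiation, where T-bet and ZEB2 act together and ID2 keeps E proteins from their DNA sites. CD4 T cells with a like profile are known as cytotoxic CD4 T cells.

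The promoters of the gate's genes and of Zeb2 and Gzma, the markers proposed with them, are shown because they are the sequences upstream of the transcripts that define the cells. Each window runs from 250 bases before to 50 bases after a start of the gene in RefSeq (GRCm38.p6), on the minus strand in each case. Capitals mark a match to 1 of 2 motifs, searched on both strands. The E-box, a site of E proteins and of ZEB family repressors, reads CACCTG on one strand and, on the opposite strand, CAGGTG. The core of the T-box site, which T-bet binds, reads GGTGTG on one strand and, on the opposite strand, CACACC.
Cx3cr1, chr9:120068247-120068546: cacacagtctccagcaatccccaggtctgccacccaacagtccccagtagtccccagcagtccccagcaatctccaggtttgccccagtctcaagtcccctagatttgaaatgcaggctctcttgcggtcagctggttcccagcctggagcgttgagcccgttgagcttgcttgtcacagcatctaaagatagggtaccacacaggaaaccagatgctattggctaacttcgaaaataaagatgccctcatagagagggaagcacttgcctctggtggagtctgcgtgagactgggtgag
S1pr5, chr9:21248394-21248693: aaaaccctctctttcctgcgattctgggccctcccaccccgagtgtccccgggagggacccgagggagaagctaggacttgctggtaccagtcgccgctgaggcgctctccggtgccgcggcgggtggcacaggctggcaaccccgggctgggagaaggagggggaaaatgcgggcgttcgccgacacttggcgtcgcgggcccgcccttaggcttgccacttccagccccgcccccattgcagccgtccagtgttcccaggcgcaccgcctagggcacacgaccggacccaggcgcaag
Zeb2, chr2:45113230-45113529: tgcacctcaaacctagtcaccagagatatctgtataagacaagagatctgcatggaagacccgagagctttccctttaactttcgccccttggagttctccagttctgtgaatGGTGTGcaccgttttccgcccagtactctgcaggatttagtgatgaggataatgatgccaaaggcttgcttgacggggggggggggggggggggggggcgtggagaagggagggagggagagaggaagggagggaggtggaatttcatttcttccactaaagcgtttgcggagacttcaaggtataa
Gzma, chr13:113100932-113101231: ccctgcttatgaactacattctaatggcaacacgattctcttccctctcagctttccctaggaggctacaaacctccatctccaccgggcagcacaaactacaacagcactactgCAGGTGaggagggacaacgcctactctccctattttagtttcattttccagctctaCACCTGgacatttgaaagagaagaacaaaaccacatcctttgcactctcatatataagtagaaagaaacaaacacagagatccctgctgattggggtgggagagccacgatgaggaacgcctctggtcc
Gzma held 2 E-box matches, at 135 and 79 bases before the start. RefSeq gives Zeb2 4 windows, of which 3 held the T-box core, 2 of them overlapping and sharing 1 match, and none the E-box. The window shown is 1 of those 3, with a match 137 bases before that start. The Zeb2 window furthest upstream, chr2:45117393-45117692, held neither motif and is not shown. Neither motif occurred in the Cx3cr1 or the S1pr5 window. Over 32851 RefSeq promoter windows of this length, 20.2% held the E-box, 19.0% the T-box core and 34.1% at least 1 of them, so these matches are a description only. Klrg1 is named without a sequence.

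In the Id2-deficient library the gate held 2 of 1712 T cells, or 0.117% (exact Clopper-Pearson 95% interval 0.0142% to 0.421%), and in the control library 156 of 3888, or 4.01% (3.42% to 4.68%). With 1 library per genotype no test is possible, and every interval given here covers counting error only. Depth did not run with the shares: the median T cell had 6216.5 UMIs in the Id2-deficient and 5354.5 UMIs in the control library. With each cell thinned to 2000 UMIs the gate held 1 of 1697 Id2-deficient and 78 of 3861 control T cells, or 0.0589% and 2.02%. The median T cell of the Id2-deficient library had 4.24% of its UMIs from mt- genes, against 1.75% in the control library. The part of this difference in the shares was not tested. Fewer cells of this kind and a lower transcript level per cell cannot be told apart from these counts.

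The threshold of 2 UMIs cut a continuous range. In the Id2-deficient library 6 T cells lay just outside at a gate sum of 1 and 0 just inside at 2, and in the control library 84 lay at 1 and 43 at 2. Above that, the Id2-deficient library had 1 cell at 3 to 4 and 1 at 10 or more, and the control library had 42 cells at 3 to 4, 56 at 5 to 9 and 15 at 10 or more. Free RNA can give a droplet UMIs of genes its cell does not use. Among B cells of the same libraries, 0 of 33 Id2-deficient and 0 of 38 control cells had a UMI of any of the 3 genes, with a median of 4954 and 3646.5 UMIs per cell in that order. These B cells held 178749 and 249776 UMIs in all, too few to show a low level of free RNA of such rare genes.

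**Figure D1:**
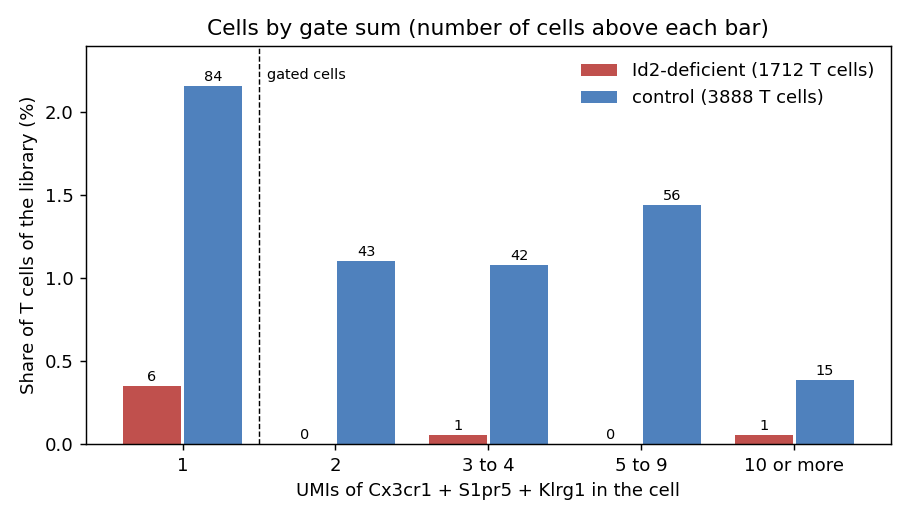
Share of the T cells of each library (percent, y axis) by the summed UMIs of Cx3cr1, S1pr5 and Klrg1 (x axis), Id2-deficient bars left of control bars, with the number of cells above each bar; cells with a sum of 0 (1704 Id2-deficient, 3648 control) are not drawn. Right of the dashed line are the gated cells, 2 of the Id2-deficient and 156 of the control library.

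The 156 control cells combined the 3 genes in different ways. Klrg1 was found in 129 of them (310 UMIs, at most 7 in a cell), Cx3cr1 in 111 (347 UMIs, at most 20) and S1pr5 in 68 (110 UMIs, at most 4). All 3 genes were seen in 39 cells, Cx3cr1 with Klrg1 in 45, S1pr5 with Klrg1 in 15, and Cx3cr1 with S1pr5 in 14. Klrg1 alone brought 30 cells into the gate and Cx3cr1 alone 13, while no cell entered on S1pr5 alone. The median gated control cell had 4697.5 UMIs and 1893.5 genes.

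The 2 gated Id2-deficient cells were unlike each other. The first, with 6359 UMIs, had 7 UMIs of Klrg1, 2 of S1pr5 and 1 of Cx3cr1, together with 495 of Ccl5, 106 of Gzma, 30 of Nkg7, 15 of Klrk1 and 6 of Zeb2. It had 2 UMIs of Cd8a, 0 of Cd4 and 2 of Id2. The second, with 4846 UMIs, entered on 3 UMIs of Klrg1 and had 5 of Nkg7, 1 of Zeb2 and 0 of Ccl5, Gzma, Cd4 and Id2. Neither cell held a Cd4 UMI, and the rest of the account of gated cells therefore concerns the control library.

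The label of the group was checked against its 2 markers outside the gate. Zeb2, the repressor that drives terminal effector differentiation, had at least 1 UMI in 90 of 156 gated cells. Gzma, a granule protease, was found in 15 of 156, so that most of these cells had no Gzma UMI at this depth, and they are called gated cells here. Cd4 was found in 101 cells, Cd8a or Cd8b1 in 15 (5 of these without Cd4) and neither in 50. T cell receptor constant transcripts were seen in all 156, γ constant transcripts in 10. Of 10 NK cell markers 7 had UMIs, but Ncr1, Klra8 and Klra4 were at 0. The 10 summed to 570 UMIs, 520 of them of Gzma. In the 437 comparison cells (defined next, as are other T cells) they summed to 109 UMIs, 26 of them of Gzma. The sums were 531 CPM (UMIs per 1000000 of the set of cells) in gated, 30.3 CPM in comparison and 17.5 CPM in other T cells. At least 3 UMIs were seen in 18 of 156 gated and 7 of 437 comparison cells. Of 4 NKT or MAIT cell markers 3 had UMIs and Zbtb16, the factor of NKT cells, was at 0. They summed to 165 UMIs, or 154 CPM in gated, 129 CPM in comparison and 85.4 CPM in other T cells. For these, at least 3 UMIs were seen in 18 of 156 gated and 45 of 437 comparison cells. Of 7 B cell markers 4 had UMIs, and Cd79a and Ms4a1 were among those at 0; they summed to 65 UMIs, or 60.5 CPM in gated, 179 CPM in comparison and 342 CPM in other T cells, with at least 3 UMIs in 7 gated and 25 comparison cells. All 4 mast cell or basophil markers were at 0. Cd8a or Cd8b1 was seen without Cd4 in 5 of 156 gated, 12 of 437 comparison and 33 of 3211 other T cells. It was seen together with Cd4 in 10, 10 and 76 of these cells in that order. The part of cells with such markers in the levels below was not tested. The sum of the NK cell markers ranged between 0 and 79 UMIs per gated cell and between 0 and 20 UMIs per comparison cell. At least 1 UMI of Ncr1, Klrb1c, Tyrobp or Fcer1g was seen in 22 of 156 gated and 35 of 437 comparison cells; without these cells 73 genes passed 2-fold upwards and 96 downwards in the comparison described next.

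Gated cells were set against Th1-like cells of the same library, which had at least 3 UMIs of Ifng, Tbx21 and Nkg7 in all and 0 of the gate's genes. There were 14 such cells in the Id2-deficient and 437 in the control library, and the 437 are called comparison cells. UMIs were summed over each set and given as CPM. A gene counted as different when its CPM was at least 2-fold apart, among 6970 genes with at least 50 UMIs over both sets. By this measure 91 genes (1.31%) were higher and 119 (1.71%) lower in gated cells, and the median log2 ratio of all genes was 0.06. A second contrast set gated cells against the 3211 other control T cells with a gate sum of 0. There 387 of 9946 genes (3.89%) were higher and 614 (6.17%) lower. Both contrasts use the same gated cells, so their values are placed side by side and are not independent. The median comparison cell had 6028 UMIs and the median other T cell 5322 UMIs.

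The genes with the highest lower bounds on the log2 ratio included Gzma, Kcnj8, Zeb2 and Ccl5. Zeb2 (ENSMUSG00000026872; chromosome 2, 44983632 to 45117395) stood at 174 CPM in gated and 13.6 CPM in comparison cells, 12.8-fold higher, with a log2 ratio of 3.67 (3.21 to 4.16). Its UMIs per gated cell ranged between 0 and 6 with a median of 1, and it was found in 57.7% of gated and 8.47% of comparison cells. With all cells thinned to 2000 UMIs these shares were 32.7% and 2.29%. In B cells of the control library, which also use Zeb2, 18.4% had a UMI.

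Ccl5 (chromosome 11, 83525778 to 83530518), a chemokine that draws in T cells and monocytes, had 5806 UMIs in gated cells, between 0 and 219 per cell with a median of 19. Its level was 5404 CPM in gated, 642 CPM in comparison and 48.1 CPM in other T cells, a log2 ratio of 3.07 over comparison cells. It was found in 117 gated cells, and 39 had none, so the gated cells were not uniform in it. Kcnj8 (chromosome 6, 142564837 to 142571614), a subunit of ATP-sensitive potassium channels, was at 117 CPM in gated, 7.52 CPM in comparison and 0.0974 CPM in other T cells. It was seen in 64 of 156 gated and 25 of 437 comparison cells. In 38 B cells of the control library Ccl5 and Kcnj8 were at 0.

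Gzma (chromosome 13, 113093825 to 113100981) ranked first, with a log2 ratio of 6.06 (5.50 to 6.69) and 520 UMIs in gated and 26 in comparison cells. Those UMIs lay in 15 gated and 5 comparison cells, up to 77 in 1 cell. The gene therefore ranked first through a minority of gated cells, and the other 141 had none. Without those 15 cells, 80 genes passed 2-fold upwards and 119 downwards.

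Receptors of NK cells followed. Klre1, a lectin receptor chain, was at 54.0 CPM in gated and 5.57 CPM in comparison cells (log2 ratio 3.28). Klrd1 (CD94), the partner chain of several such receptors, was at 338 CPM in gated and 91.9 CPM in comparison cells (1.88), in 106 of 156 and 166 of 437 cells. Slamf7, a SLAM family receptor, was at 121 CPM in gated and 22.0 CPM in comparison cells (2.46). Klrb1c (NK1.1) had a log2 ratio of 1.91, and Klrc1 and Klrc2, close copies whose reads could be exchanged, had 1.35 and 1.36. Of the NK cell receptor list, 12 of 20 genes were measured, 6 passed 2-fold upwards and 0 downwards, and the median was 0.98 against 0.06 for all genes. Of all genes 1.31% passed upwards and 1.71% downwards, and the counts of every list set against comparison cells stand beside these shares. The 2 with the most UMIs, Hcst (the adaptor DAP10) and Klrd1, had log2 ratios of 0.28 and 1.88.

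The rest of the 15 highest genes were a mixed set. Il18rap, the signalling chain of the interleukin 18 receptor, was at 284 CPM in gated and 98.8 CPM in comparison cells (1.52). Klf3, a repressor of the same family as KLF2, was at 155 CPM in gated and 47.6 CPM in comparison cells (1.71), while other T cells had 82.5 CPM. Plek (pleckstrin, a target of protein kinase C) had a log2 ratio of 2.08, Apobec2 2.80, Ifitm10 2.83, Ctnnbip1 (an inhibitor of β-catenin) 2.43, Borcs7 2.19 and 1700025G04Rik 2.90. These 6 rested on 34 to 67 UMIs each in gated cells.

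**Figure D2:**
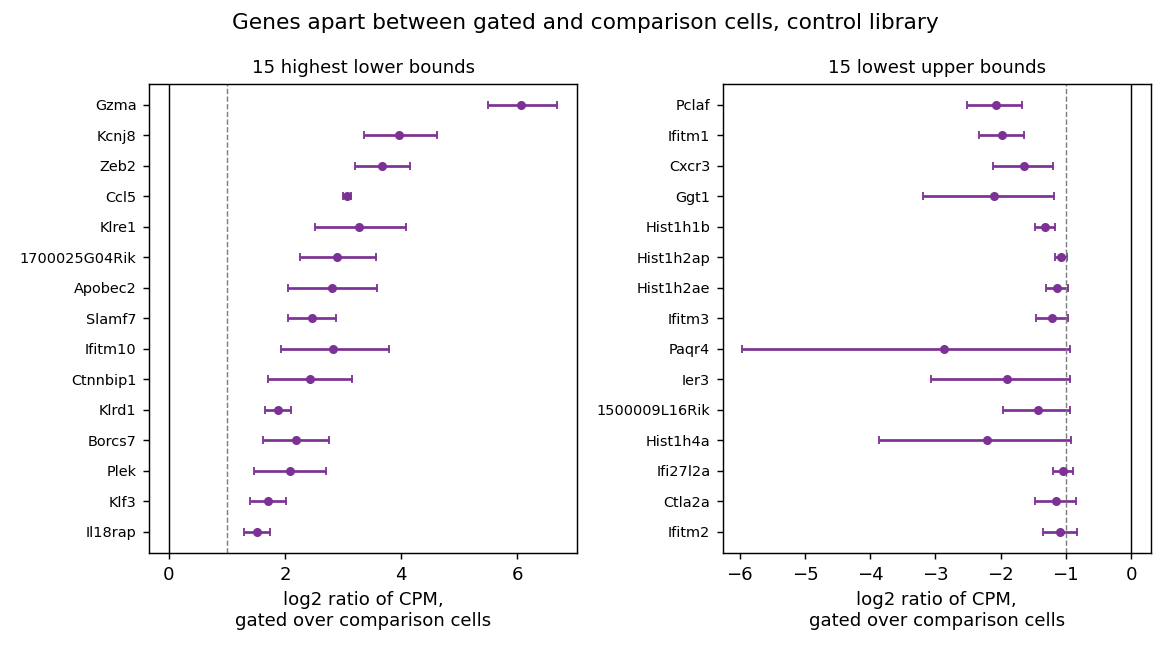
Log2 ratio of CPM, gated over comparison cells of the control library (x axis), for the 15 genes with the highest lower bound (left) and the 15 with the lowest upper bound (right); bars are exact 95% intervals for counting error, the solid line marks 0 and the dashed lines 2-fold. Gzma, Kcnj8 and Zeb2 lie furthest to the right at 6.06, 3.96 and 3.67.

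Cytotoxic genes were uneven. Of 20 on the list, 16 were measured, 2 passed 2-fold upwards (Gzma and Gzmb) and 0 downwards, and the median was 0.30. Among all genes 1.31% passed upwards and 1.71% downwards. Gzmb, the apoptosis-inducing granzyme, was at 32.6 CPM in gated and 12.0 CPM in comparison cells (log2 ratio 1.44), in 21 gated and 20 comparison cells. Perforin (Prf1) had 20 UMIs in gated and 8 in comparison cells, too few to be measured. The granule proteoglycan Srgn and the protease Ctsd, the 2 with the most UMIs, had log2 ratios of 0.19 and 0.89, and Unc13d, needed for granule release, had −0.45 (−1.03 to 0.10). The genes of the comparison gate were also above the comparison cells that had been chosen for them. Nkg7, a granule membrane protein, was at 1504 CPM in gated and 669 CPM in comparison cells, Ifng at 238 CPM and 155 CPM in the same order, and Tbx21 (T-bet) at 67.0 CPM and 39.5 CPM.

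Among transcription factors of effector cells, 14 of 20 were measured, 2 passed 2-fold upwards (Zeb2 and Ikzf3) and 0 downwards, and the median was 0.43. The shares of all genes were 1.31% upwards and 1.71% downwards. Ikzf3 (Aiolos) was at 87.5 CPM in gated and 36.2 CPM in comparison cells. Hopx, a homeodomain protein of long-lived Th1 cells, was at 610 CPM in gated and 342 CPM in comparison cells (0.83), and Runx3, Bhlhe40 and Prdm1 had log2 ratios of 0.61, 0.54 and 0.82. Rbpj, the Notch partner, had −0.53.

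Id2 itself (ENSMUSG00000020644; chromosome 12, 25093799 to 25097140) was at 485 CPM in gated and 432 CPM in comparison cells, a log2 ratio of 0.17 (0.02 to 0.31), and other T cells had 282 CPM. It was found in 140 of 156 gated cells, between 0 and 16 UMIs with a median of 2. Gated cells were thus close to comparison cells in Id2. A gate of at least 1 UMI of Klrg1, with Cx3cr1 and S1pr5 at 0, also took cells at a gate sum of 1. With it the log2 ratio of Id2 was −0.13. Its relative Id3 had 5 UMIs in gated and 60 in comparison cells (−1.84, −3.52 to −0.54), and the E protein gene Tcf3 (E2A) had a log2 ratio of 0.20. As a check of the label, T cells outside the gate had 11.5 CPM of Id2 in the Id2-deficient and 307 CPM in the control library. Within the comparison gate, with 14 Id2-deficient cells, the log2 ratio of Id2 (Id2-deficient over control) was −1.38 (−2.00 to −0.82). Id2 RNA was thus less reduced in those 14 cells than over all T cells outside the gate.

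Genes of positioning differed from one another. Cxcr3 (chromosome X, 101731535 to 101734269), the receptor that brings Th1 cells to interferon-induced chemokines, was at 42.8 CPM in gated, 134 CPM in comparison and 74.6 CPM in other T cells, a log2 ratio of −1.64 (−2.11 to −1.20) against comparison cells. It was found in 32 of 156 gated and 241 of 437 comparison cells. Cxcr6 and Ccr2, the 2 chemokine receptors with the most UMIs, had log2 ratios of −0.08 and −0.14. Of 13 chemokine receptors 7 were measured, 1 was higher and 1 lower, with a median of −0.08, where 1.31% of all genes were higher and 1.71% lower.

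Of 22 genes of egress, recirculation and adhesion 16 were measured, 1 passed 2-fold upwards (Klf3) and 0 downwards, and the median was 0.10. For all genes the shares were 1.31% upwards and 1.71% downwards. The β2 integrin pair that forms LFA-1 was above comparison cells without reaching 2-fold. Itgb2 was at 394 CPM in gated and 207 CPM in comparison cells (0.93, 0.75 to 1.10) and Itgal at 304 CPM in gated and 186 CPM in comparison cells (0.71, 0.51 to 0.90). Itga4, the α4 chain of VLA-4, by which T cells enter the inflamed central nervous system, was at 398 CPM in gated and 231 CPM in comparison cells (0.79, 0.61 to 0.96). Klf2, which maintains S1pr1 transcription, was at 1779 CPM in gated and 1356 CPM in comparison cells (0.39), and S1pr1, the general egress receptor, was at 230 CPM in gated and 223 CPM in comparison cells (0.04, −0.17 to 0.25). Of the sphingosine 1-phosphate receptors outside the gate, S1pr4 likewise had −0.07.

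The 15 genes furthest below comparison cells held 3 Ifitm genes, 4 histone genes, Pclaf, Cxcr3 and 6 others. Ifitm1, Ifitm2 and Ifitm3, interferon-induced membrane proteins from neighbouring and similar genes, were at 71.7, 136 and 142 CPM in gated and 283, 288 and 329 CPM in comparison cells, with log2 ratios of −1.98, −1.08 and −1.21. Against other T cells they stood at 0.00, −0.03 and −0.09 over all gated cells, but gated cells were not uniform. In other T cells they were at 71.6, 139 and 152 CPM in the same order. At a gate sum of 3 to 4 they were at 136, 221 and 282 CPM, and at 5 or more at 78.5, 55.4 and 78.5 CPM. Of the Ly6 and Ifitm list 7 of 8 were measured, 3 were lower (Ifitm1, Ifitm2 and Ifitm3) and 2 higher, Ifitm10 and Ly6c2. By comparison 1.71% of all genes were lower and 1.31% higher. Ly6c2, the surface antigen of circulating effector cells, was at 245 CPM in gated and 87.7 CPM in comparison cells (1.48).

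Pclaf, a PCNA-associated replication factor, had a log2 ratio of −2.08, and the histone genes Hist1h1b, Hist1h2ap, Hist1h2ae and Hist1h4a had −1.31, −1.08, −1.14 and −2.20. Histone genes of this cluster resemble each other, and reads may be divided among them. Cycling cells, defined by at least 2 UMIs of Mki67, Top2a and Pclaf, made up 22 of 156 gated and 73 of 437 comparison cells, or 14.1% and 16.7%. With cycling cells left out of both sets, Hist1h1b turned to 0.04 and Hist1h2ap to 0.57. Of the 20 cell cycle genes, all measured, 1 was higher and 1 lower, with a median of −0.31. The higher one, Cenpf, drew 36.2% of its gated UMIs from 1 cell.

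The other lowest genes were Ggt1, an enzyme of glutathione breakdown (−2.11), Paqr4 (−2.87), the stress-response gene Ier3 (−1.91), 1500009L16Rik (−1.43), the interferon-induced Ifi27l2a (−1.04) and Ctla2a, a protease inhibitor (−1.16). With the gate at a sum of at least 3, 1500009L16Rik had −3.42, Ctla2a −2.17 and Paqr4 −2.28. Ifi27l2a was at 371 CPM in gated, 764 CPM in comparison and 1648 CPM in other T cells.

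Of the Th17 list 11 of 19 were measured, 0 were higher and 2 lower, where 1.71% of all genes were lower, and the median was −0.23. With the gate at a sum of at least 3 the median was −0.79. The medians of the single genes' lower and upper bounds were −1.40 and −0.16 there, which is not an interval for the list. Il17re, a receptor chain for interleukin 17C and 1 of the 2 lower genes, was at 18.6 CPM in gated, 51.5 CPM in comparison and 55.9 CPM in other T cells. Its log2 ratio over comparison cells was −1.47, and −2.39 at a gate sum of at least 3. Il17a had 0 UMIs in gated cells, which allows up to 2.79 CPM by a limit of 3 UMIs, and 14 UMIs in comparison cells. Against other T cells, 12 of 19 Th17 genes were lower and 0 higher, where 6.17% and 3.89% of all genes were.

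Of stem-like and memory genes 12 of 20 were measured, 0 were higher and 1, Id3, was lower, with a median of −0.17. Il7r, the interleukin 7 receptor, was at 498 CPM in gated and 768 CPM in comparison cells (−0.63, −0.76 to −0.49), and Tcf7 (TCF1) at 144 CPM in gated, 152 CPM in comparison and 307 CPM in other T cells. Among inhibitory receptors 7 of 12 were measured and 2 were lower, against 1.71% of all genes: Btla and Ctla4, with 4 and 11 UMIs in gated cells; Pdcd1 (PD-1) had 0.12. Among 12 costimulatory receptors 1 was higher, Tnfrsf9, with 88.5% of its gated UMIs in 1 cell. Th1 cytokines and their sensing had 1 higher (Il18rap) and 1 lower gene (Csf2, 7 UMIs in gated cells) of 11 measured, and Il12rb2, which senses interleukin 12, was at 21.4 CPM in gated and 13.6 CPM in comparison cells.

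Of 20 S100, annexin and cytoskeleton genes 0 were higher and 1, Actn1, lower, with a median of −0.18. S100a6 was at 2283 CPM in gated and 3989 CPM in comparison cells, and Ahnak, a large membrane scaffold, at 944 CPM in gated and 640 CPM in comparison cells. Metabolic genes stood near the median of all genes: of 22 nuclear genes of oxidative phosphorylation 0 were higher or lower (median −0.05), and of 16 measured glycolytic genes 0 were higher and 1, Pdk1, lower (median −0.16). Of 13 measured Rgs and Gimap genes and of 13 survival and death genes none was 2-fold apart (medians 0.31 and 0.15), of 10 cytokine receptors 1, Tgfbr1, was lower (−0.02), and of 11 genes of T cell receptor activation 1 was higher and 2, Myc and Egr1, lower (−0.27). In the interferon response list 2 of 13 were higher, Ifit1 and Isg15, with 65.6% and 79.3% of their gated UMIs in 1 cell. Ifi27l2a was lower, where 1.31% of all genes were higher and 1.71% lower. Of 2 measured chemokines both were higher, but Cxcl10 had 98.7% of its gated UMIs in 1 cell, which leaves Ccl5.

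**Figure D3:**
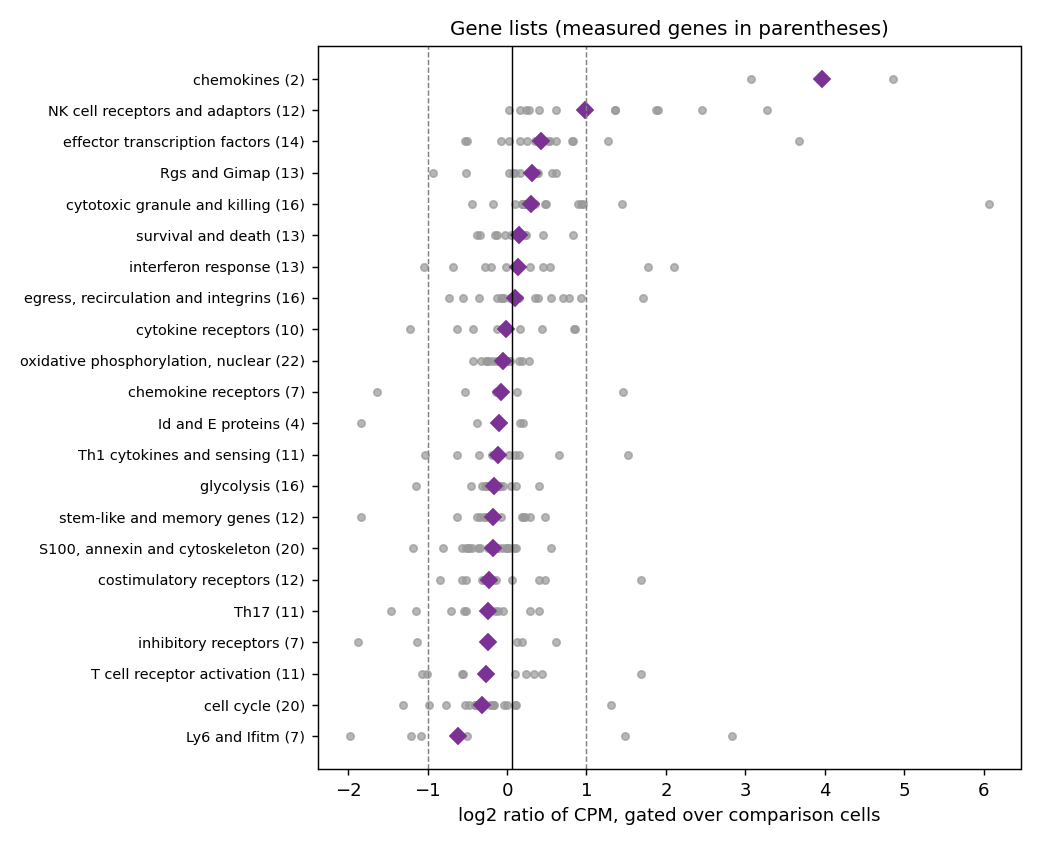
Log2 ratio of CPM, gated over comparison cells (x axis), for the measured genes of 22 lists (grey points), with each list's median (diamond), the median of all genes (solid line, 0.06) and 2-fold limits (dashed). The NK cell receptor list has a median of 0.98, and the chemokine list rests on 2 genes.

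Levels followed the gate sum in steps. Zeb2 had 10.0 CPM in other T cells and 13.6 CPM in comparison cells, both at a sum of 0, and then 36.8 CPM at 1, 91.4 CPM at 2, 128 CPM at 3 to 4 and 273 CPM at 5 or more. Ccl5 had 1609, 2603, 5332 and 7789 CPM over the same 4 steps above 0. Klrd1 had 209 CPM at 1 and 202 CPM at 2, then 286 and 485 CPM. S100a6 went the other way, with 3580, 2985, 2544 and 1529 CPM, and Il7r had 658, 720, 468 and 333 CPM. Gzma had 0 UMIs in the 43 cells at a sum of 2, and 546 and 848 CPM at 3 to 4 and at 5 or more. The cells at a sum of 1, outside the gate, were thus between the comparison cells and the gated cells in Zeb2 and Ccl5.

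**Figure D4:**
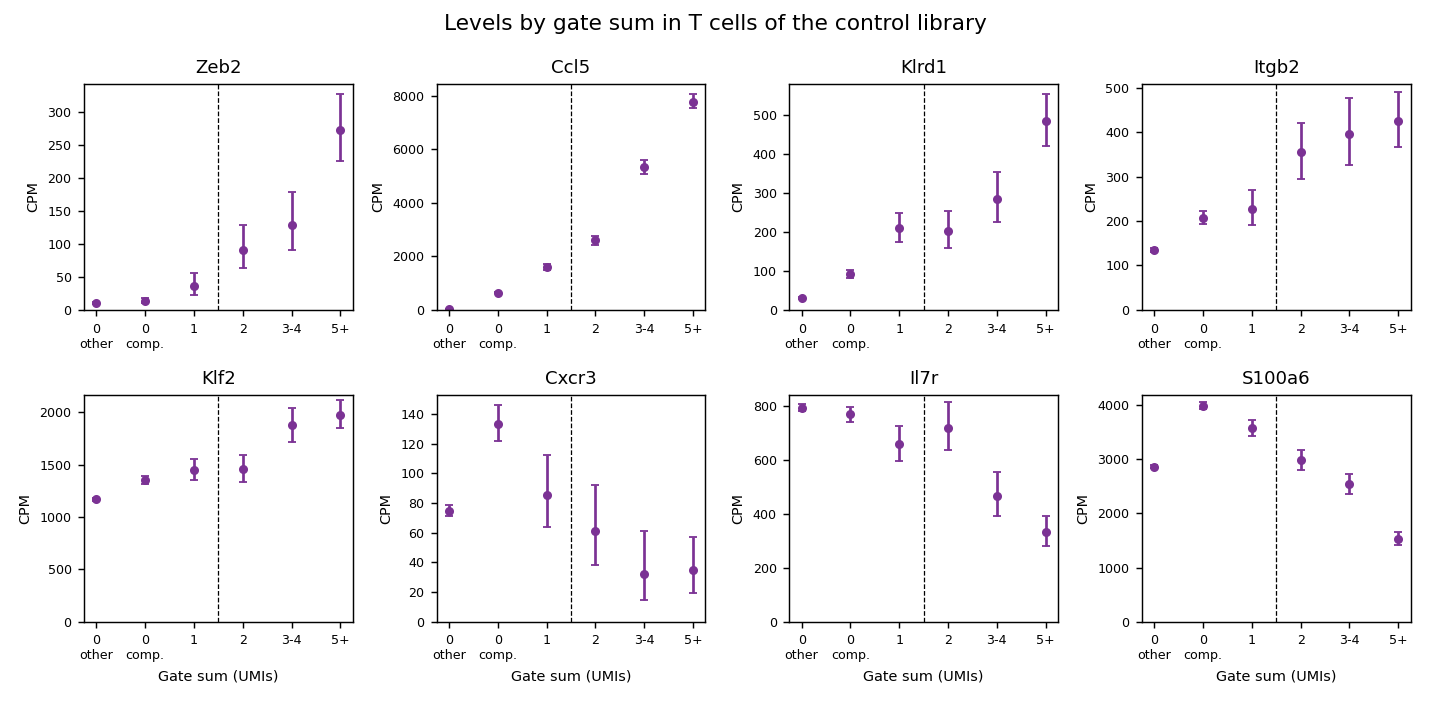
CPM (y axes, from 0) of 8 genes by gate sum in T cells of the control library (x axis, low to high; cells at 0 are divided into other and comparison cells), with exact Poisson 95% intervals; the dashed line is the gate threshold. Zeb2, Ccl5, Klrd1, Itgb2 and Klf2 are highest, and Cxcr3, Il7r and S100a6 low, at sums of 5 or more.

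S1pr5 is 1 of the gate's own genes, so a split of the gated cells by it is a description. The 68 gated cells with an S1pr5 UMI had 10061 CPM of Ccl5, against 3012 CPM in the 88 without, although their median depth was lower, at 4249 against 5917.5 UMIs. Zeb2 was at 329 CPM in cells with S1pr5 and 94.4 CPM in those without, Klrd1 at 540 and 234 CPM in the same order, Nkg7 at 2145 and 1175 CPM, and Klf2 at 2315 and 1503 CPM. Il7r was at 299 CPM with S1pr5 and 600 CPM without, and Ifitm3 at 49.4 and 190 CPM. Cxcr3 did not follow, at 43.9 CPM with and 42.3 CPM without S1pr5, nor did Id2, at 510 CPM with and 472 CPM without.

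The 30 cells that entered on Klrg1 alone had 54.5 CPM of Zeb2, 1692 CPM of Ccl5, 7.26 CPM of Klre1 and 3505 CPM of S100a6, values between those of all gated and of comparison cells. An alternative gate took control T cells with at least 1 UMI of Klrg1 and 0 of Cx3cr1 and S1pr5, so it also held cells at a sum of 1. With it 35 genes were at least 2-fold higher than in comparison cells. Another took cells with at least 1 UMI of S1pr5, whatever their Cx3cr1 and Klrg1, and gave 226. These gates are unlike, so the numbers are not a like-for-like contrast. The 15 cells with Gzma had 9453 CPM of Ccl5, against 4886 CPM in the 141 without, and 254 CPM of Zeb2 against 164 CPM. Cd4 was found in 11 of those 15 cells and Cd8a in 3.

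The genes whose counts most resembled the gate sum over single cells were, by Spearman's rho over 3861 control T cells thinned to 2000 UMIs, Nkg7 (0.45), Ccl5 (0.44), Kcnj8 (0.39), Klrd1 (0.33), Ly6c2 (0.32), Zeb2 (0.31), Il18rap (0.30) and Plek (0.25). The cells share a library and most have 0 for the gate sum, so these are descriptions without p-values.

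Outside the gate, the same genes were compared between the libraries, since gated cells were nearly absent from one. Over 1710 Id2-deficient and 3732 control T cells outside the gate, 653 of 10771 genes (6.06%) passed 2-fold on the Id2-deficient side and 450 (4.18%) on the control side, and the median over all genes was 0.10 (log2, Id2-deficient over control). Ccl5 was at 9.22 CPM in Id2-deficient and 172 CPM in control cells (−4.22, −4.50 to −3.95), in 20 and 356 cells in that order. Kcnj8 had 1 UMI in the Id2-deficient and 53 UMIs in the control cells. Il18rap was at 10.9 CPM in Id2-deficient and 43.7 CPM in control cells (−2.00), Klrd1 at 21.8 CPM and 44.3 CPM in that order (−1.02) and Slamf7 at 2.41 CPM and 6.31 CPM (−1.39).

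The sets outside the gate differed in make-up. Comparison cells were 0.818% of the T cells in the Id2-deficient and 11.2% in the control library. Of the 14 in the Id2-deficient library, 7 had Cd8a or Cd8b1 UMIs without Cd4, and 4 had Cd4 without Cd8a or Cd8b1. Of the 437 in the control library these numbers were 12 and 296. Between these 2 sets Id2 had a log2 ratio of −1.38 (−2.00 to −0.82). The part of these differences in the ratios below was not tested. Of the 53 Kcnj8 UMIs in control cells, 27 lay in comparison cells, 24 in cells at a gate sum of 1 and 2 in other T cells. Of the control Ccl5 UMIs, 2305 lay in comparison cells, 961 in cells at a sum of 1 and 987 in other T cells. Within the comparison gate, with 14 Id2-deficient and 437 control cells, Ccl5 had a log2 ratio of −2.56 (−3.34 to −1.88), Il18rap −0.37 (−1.33 to 0.46), Klrd1 −0.68 (−1.82 to 0.27) and Slamf7 −0.78 (−3.85 to 1.12). There Kcnj8 had 0 UMIs in Id2-deficient cells, which allows up to 19.2 CPM by a limit of 3 UMIs, against 7.52 CPM in control cells, so that no difference was detectable at this depth. In other T cells, Ccl5 was found in 19 of 1690 Id2-deficient and 177 of 3211 control cells, and Il18rap was at 9.80 CPM in the Id2-deficient and 30.1 CPM in the control library.

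Over all T cells outside the gate, Zeb2, Klf3, Apobec2 and Gzma of the gated profile did not pass 2-fold on the control side. Zeb2 was at 19.0 CPM in Id2-deficient and 11.2 CPM in control cells (0.76, 0.51 to 1.02), in 128 and 204 cells in that order. Klf3 was at 86.4 CPM in Id2-deficient and 77.2 CPM in control cells (0.16), and Apobec2 had −0.18 (−0.94 to 0.54). Gzma was at 14.7 CPM in Id2-deficient and 1.90 CPM in control cells, but 71.6% of its 183 Id2-deficient UMIs lay in 1 cell. Genes low in gated cells were not uniformly opposite: Cxcr3 was at 75.2 CPM in Id2-deficient and 83.5 CPM in control cells, and Ifitm1 at 0.882 CPM and 103 CPM in that order. Within cells at 2% to 3% of mt- UMIs, where both libraries overlap, Zeb2 had 1.73, Ccl5 −2.16, Il18rap −0.96, Klrd1 −0.33 and Klf3 −0.88. The median cell outside the gate lay beyond this range in both libraries, at 4.24% in the Id2-deficient and 1.76% in the control library. In this range Pclaf, Hist1h1b, Hist1h2ap and Hist1h2ae changed sign and were far higher on the Id2-deficient side (values below). The cells compared there were thus unlike in genes of replication.

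**Figure D5:**
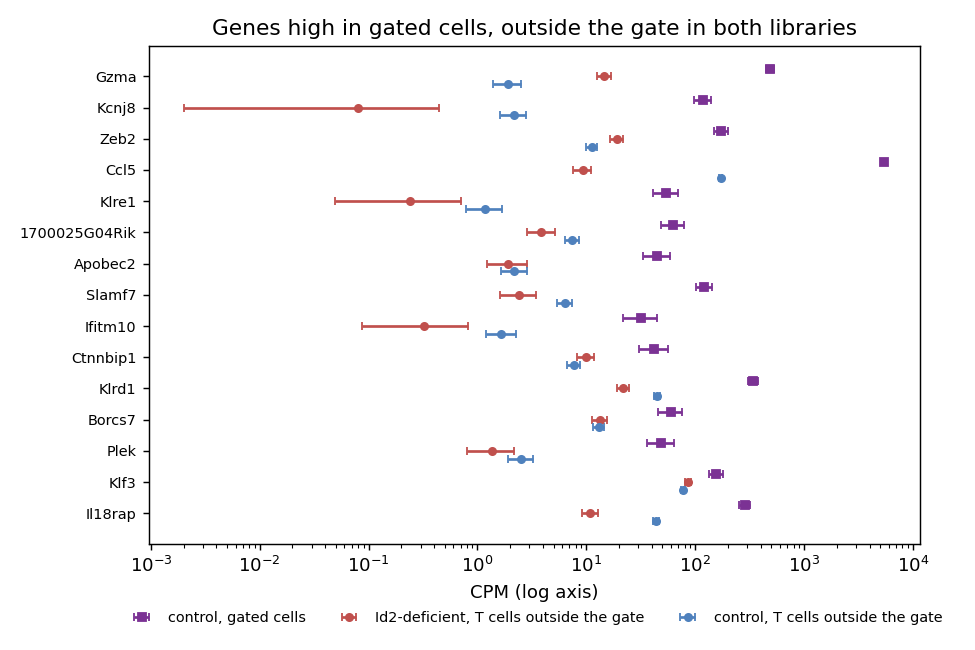
CPM on a log axis (x axis) of the 15 genes highest in gated cells, for gated cells of the control library (squares), T cells outside the gate of the Id2-deficient library (upper circles) and of the control library (lower circles), with exact Poisson 95% intervals. Outside the gate Ccl5 is at 9.22 CPM in the Id2-deficient and 172 CPM in the control library, while Zeb2 is at 19.0 and 11.2 CPM in that order.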

How the data were processed

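The deposited files hold raw counts, UMI counts per gene and barcode, for 32285 genes, 1 table per library. Per the file headers the authors' tables came from Cell Ranger 5.0.1; per the submitters' processing notes it was version 1.3 with build mm10. The deposited barcodes had been filtered by a rule not given in the sources used here. A 3′ library counts transcript ends, so the Id2 count checks the deletion only if that end is lost.

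Cells were taken from the counts by the gates stated in the report, without clustering (Python 3.11.15 with pandas 2.3.3, scipy 1.17.1 and numpy 2.4.6; figures with matplotlib 3.10.9). The members, gene lists and gates were chosen with earlier results of these data known. B cells had at least 3 UMIs of B cell genes such as Cd79a, Cd79b and Ms4a1 in all and 0 of the CD3 genes. Scrublet (scanpy 1.11.5) marked 9 Id2-deficient (0.465%) and 2 control barcodes (0.0406%), so its threshold had not worked and doublets were kept. An alternative leaves out the highest scores, 13 gated control cells among them.

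Ratios of summed CPM have exact conditional binomial intervals, CPM exact Poisson intervals and shares Clopper-Pearson intervals, all at 95%. UMIs are molecules, but cells are not replicates. The calculation was tested on simulated counts. Named genes are the first 15 in each direction, ranked by the bound of the ratio nearest to no difference, leaving out gate genes, receptor and immunoglobulin segments, mt- genes, Xist, Y-linked genes and genes with at least 20% of the higher set's UMIs in 1 cell. Of each of the 22 lists they include the highest, the lowest and the 2 members with the most UMIs. Further members that carry values are named beyond this rule, chosen after their values were seen. For genes like the gate, the 8 highest rank correlations are given. Of the list symbols 1 was missing. Values of some list members are not reported here. Coordinates are those of the GENCODE annotation of GRCm38. Alternatives changed the gates, cell filters, weighting, depth and UMI minimum; 4 were added after seeing the data, leaving out cells with Gzma, cycling cells, cells with Ifitm1, or cells without Cd4.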

Additional observations from a re-analysis of the deposited data

How the results depend on the processing

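The share of T cells in the gate was 2.91% of the control library at a sum of at least 3 UMIs, 6.17% at 1 and 2.02% after thinning, and 0.467% of the Id2-deficient library at a sum of at least 1. The number of genes at least 2-fold higher, 91, became 226 with a gate on S1pr5, 35 on Klrg1 alone and 154 with each cell weighted equally. It became 56 after thinning, 391 against all other T cells at a sum of 0, 257 with a minimum of 20 UMIs and 18 with 200. Both single-gene gates asked for at least 1 UMI, and that on Klrg1 alone also for 0 of Cx3cr1 and S1pr5. The number lower, 119, became 238 at a sum of at least 3, 434 with a gate on S1pr5, 55 after thinning, 615 against all other T cells, 295 with a minimum of 20 UMIs, 20 with 200, and 70 without cells with Ifitm1, an alternative added after seeing the data. With a Cd4 UMI required the numbers were 68 and 87. Thinning and the UMI minimum change how many genes are tested; for the other settings the cause was not tested.

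Each list median was held against the range from the median of its genes' lower bounds to that of their upper bounds. This range is not an interval for the list median. Of 462 list medians under these alternatives 417 stayed within it, 42 left it and 3 changed sign. Values of single genes were held against their own intervals. Of 1734 values of named genes these numbers were 1427, 291 and 16, and of 73 values between libraries 32, 34 and 7. A change of sign was counted only where the range or interval of the main setting excluded 0. With the gate on S1pr5, S100a10 became 0.051. With the gate on Klrg1 alone, the S100 list became 0.079, Id2 −0.13, Ltb 0.049, Cd28 0.074, Crip1 0.040, S100a10 0.21, Ly6a 0.13, Hmgb2 0.012, Pdk1 0.56 and Cox6c 0.069. Against all other T cells, the chemokine list became −0.10, the S100 list 0.24, Ifngr1 0.079, Crip1 0.0045, S100a10 0.41 and Hmgb2 0.20. Without cycling cells Hist1h1b became 0.042 and Hist1h2ap 0.57. Between libraries, Cxcr3 became 0.20 within the comparison gate. Within cells at 2% to 3% of mt- UMIs, Cxcr3 became 0.33, Klf3 −0.88, Pclaf 3.80, Hist1h1b 4.11, Hist1h2ap 3.09 and Hist1h2ae 3.81.

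No paired analysis was possible because there was 1 library per genotype. Genotype and library cannot be told apart. Genes under 50 UMIs over both cell sets were not measured.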

Other observations

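T cell receptor β segments were counted in the control library, although a 3′ library captures few of them. Of gated cells with a Trbv UMI, 15 of 52 (28.8%) had Trbv20 and 11 (21.2%) Trbv15. In comparison cells these were 29 of 174 (16.7%) and 11 (6.32%), and in other T cells 122 of 1200 (10.2%) and 45 (3.75%). The segments were picked after their counts were seen, and cells that descend from 1 clone are not independent. How many clones the gated cells hold was not tested.

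Cytosolic ribosomal protein genes, also picked after their values were seen, made up 25.3% of the UMIs of gated, 28.0% of comparison and 30.9% of other T cells. Of 80 such genes 79 had a log2 ratio below 0 against comparison cells, with a median of −0.17, and 0 were 2-fold apart. Over all 6970 genes the median was 0.06, and 1.31% were at least 2-fold higher and 1.71% lower.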
